A study of Sus scrofa with 6 samples.

Results

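The genes described here carry symbols of glutathione and thioredoxin chemistry and of the NRF2 response. The cells were IPEC-1, a non-transformed epithelial line from the small intestine of newborn piglets. Not all of these genes encode enzymes, since TXNIP encodes an inhibitor of thioredoxin. They were chosen by gene symbol: every symbol of the array annotation that begins with GSTA, GSTM, GSTO, GSTP, GSTT, GSTK, GSTZ, MGST, PRDX, TXN, GPX, GLRX or SOD, and in addition FAM213A, CAT, GSR, GSS, GCLC, GCLM, NQO1, SRXN1, NFE2L2 and KEAP1. Of 6765 named genes on the array, 46 belonged to this group, and they were covered by 72 probe sets. No probe set carried the symbol of SRXN1, NFE2L2 or KEAP1, or a symbol beginning with GSTP or GSTT. A TXNL4B probe set annotated to more than 1 gene ID was left out.

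Cells were grown on membranes either as air-liquid interface culture (ALI), with a thin film of liquid on the apical side, or as submerged membrane culture (SMC), under a column of medium. Both culture types shared the line and the medium, which contained insulin, transferrin and selenium and from which serum was withdrawn in steps. RNA of 3 ALI and 3 SMC cultures was hybridized to 6 GeneChip Porcine Genome Arrays, with a pair of ALI and SMC cultures from each of 3 passages. Replicates 1, 2 and 3 of both culture types are these passages in the same order, so p-values measure the spread between cultures of 1 cell line and not between animals. The comparison asks which of these genes differ between ALI and SMC cells. Values are log2 signals of the probe set with the highest mean per gene, and fold changes are ALI relative to SMC cells. A gene was called at an adjusted p under 0.05 from limma (Benjamini-Hochberg over all 23999 probe sets), fitted without and with the passage as a block.

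The epithelial genes CDH1, EPCAM, KRT8, KRT18 and KRT19 had mean signals between 12.23 and 13.66 in ALI and between 12.41 and 13.54 in SMC cells. Of all 13 epithelial and enterocyte markers 0 were called, with 0 higher and 2 lower at an unadjusted p under 0.05, the brush border protein VIL1 (log2 fold change -0.45, adjusted p = 0.332) and the glucose transporter SLC5A1 (-0.54, adjusted p = 0.22), both below SMC on every ALI array. The absorptive enterocyte markers FABP1 and FABP2 lay in the lowest 25% of the array values on every array, where a signal may be background. The free-text label of the samples names liver, and the 11 hepatocyte markers were mixed. FGB, FGG, APOB and TAT were in the lowest 25% on every array, whereas ALB, AHSG and SERPINA1 averaged 8.28, 7.55 and 8.18 in ALI and 8.58, 7.28 and 8.62 in SMC cells. None of the 11 was called, or had an unadjusted p under 0.05 from limma. Their mean signal was 5.08 to 5.42 in ALI and 5.12 to 5.61 in SMC cells. Mean signals of the 10 measured markers of fibroblasts and smooth muscle were 5.92 to 5.97 in ALI and 6.08 to 6.27 in SMC cells. Among these markers, ACTG2 was lower in ALI cells (log2 fold change -2.66, limma, adjusted p = 0.0158). Those of the 8 endothelial and immune markers were 5.002 to 5.11 in ALI and 4.9999 to 5.15 in SMC cells. Of these, PECAM1 was lower in ALI cells (log2 fold change -0.50, adjusted p = 0.0448), with separate groups, while CDH5, KDR and PTPRC were in the lowest 25% on every array. The part of other cell types in the results was not tested. In these bulk samples, fewer cells of a type and less RNA per cell cannot be told apart.

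Glutathione is a small thiol peptide that glutamate-cysteine ligase (GCLC and GCLM) and glutathione synthetase (GSS) build. Glutathione S-transferases couple it to electrophiles, glutathione peroxidases spend it on peroxides, and glutathione reductase (GSR) restores it with NADPH. The thioredoxin system runs in parallel, with thioredoxin reductases that reduce thioredoxin and peroxiredoxins that draw on it to clear peroxides. The transcription factor NRF2, encoded by NFE2L2 and held back by KEAP1, raises many of these genes under electrophilic or oxidative stress, and the intestinal epithelium, which faces dietary electrophiles, is rich in several of them.

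FAM213A, a thioredoxin-like protein of the peroxiredoxin type, had the highest fold change of the 46 genes. Its log2 signal in replicates 1, 2 and 3 was 8.24, 7.95 and 8.93 in ALI and 6.03, 6.04 and 6.66 in SMC cells. All ALI arrays were above all SMC arrays, and replicate 3 was the highest in both groups. This amounted to a 4.38-fold higher signal, or a log2 fold change of 2.13 (SE 0.27, 95% confidence interval 1.52 to 2.74, limma, adjusted p = 0.00937). The difference was similar in each passage, at 2.21, 1.91 and 2.28. Leaving out SMC replicate 2 raised the adjusted p to 0.061 at a log2 fold change of 2.03.

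GSTO1, the omega class transferase, which has thioltransferase and dehydroascorbate reductase activity, rose in ALI cells. Its log2 signals were 11.46, 11.33 and 11.68 in ALI and 10.42, 10.49 and 10.56 in SMC cells (replicates 1, 2 and 3). The groups did not overlap, and the log2 fold change was 0.9996 (SE 0.12, 95% confidence interval 0.73 to 1.27, limma, adjusted p = 0.00781). It passed the test without any 1 of the 6 arrays, with adjusted p from 0.0106 to 0.0487.

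GSTA4, the alpha class enzyme that conjugates 4-hydroxynonenal, a product of lipid peroxidation, was higher in ALI cells as well. The log2 signals were 11.26, 11.10 and 11.26 in ALI and 10.06, 10.32 and 10.34 in SMC cells, with no overlap. The log2 fold change was 0.97 (SE 0.12, 95% confidence interval 0.70 to 1.23, limma, adjusted p = 0.00808). Without ALI replicate 1 the adjusted p was 0.052. The second GSTA4 probe set had mean signals of only 4.56 in ALI and 4.19 in SMC cells, close to or within the lowest 25% of the array values, and its log2 fold change of 0.37 did not pass the test (adjusted p = 0.181).

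The other transferases did not pass the test. GSTA1, the second alpha class gene measured, is separated from GSTA4 by 3 annotated genes on the same chromosome of the RefSeq assembly Sscrofa11.1. Its log2 signals were 8.98, 8.80 and 9.20 in ALI and 8.88, 8.40 and 8.58 in SMC cells, which overlapped. The log2 fold change was 0.38 (SE 0.16, adjusted p = 0.326), and a GSTA1 probe set that can bind more than 1 transcript gave 0.36 (adjusted p = 0.228). The difference between the changes of GSTA4 and GSTA1 was not tested. MGST1, a membrane-bound transferase of the endoplasmic reticulum and mitochondria, had 0.46 (95% confidence interval 0.10 to 0.82, adjusted p = 0.226). GSTK1, GSTM3, GSTZ1 and MGST3 had log2 fold changes between -0.06 and 0.09, and GSTM3 was in the lowest 25% of the values on every array.

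NQO1 and CAT passed the test, both higher in ALI cells, when the passage was a block. NQO1, a quinone reductase and a widely used readout of NRF2 activity, had log2 signals of 12.26, 12.08 and 12.65 in ALI and 11.09, 11.14 and 11.76 in SMC cells (replicates 1, 2 and 3). All ALI arrays were above all SMC arrays, and replicate 3 was the highest in both. The log2 fold change was 1.0015, with a SE of 0.21 and an adjusted p of 0.0609 without the block, against a SE of 0.11 and an adjusted p of 0.0026 with it. Without the block, NQO1 passed the test once SMC replicate 3 was left out (log2 fold change 1.22, adjusted p = 0.0271) or with an intensity trend in the fit (adjusted p = 0.042). CAT, the catalase of peroxisomes, had 12.33, 11.84 and 12.75 in ALI and 11.47, 11.48 and 11.92 in SMC cells. Here the groups overlapped, since ALI replicate 2 was below SMC replicate 3, whereas ALI was higher within each passage, by 0.85, 0.36 and 0.84. The log2 fold change of CAT was 0.68 (adjusted p = 0.22 without and 0.0229 with the block).

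**Figure D1:**
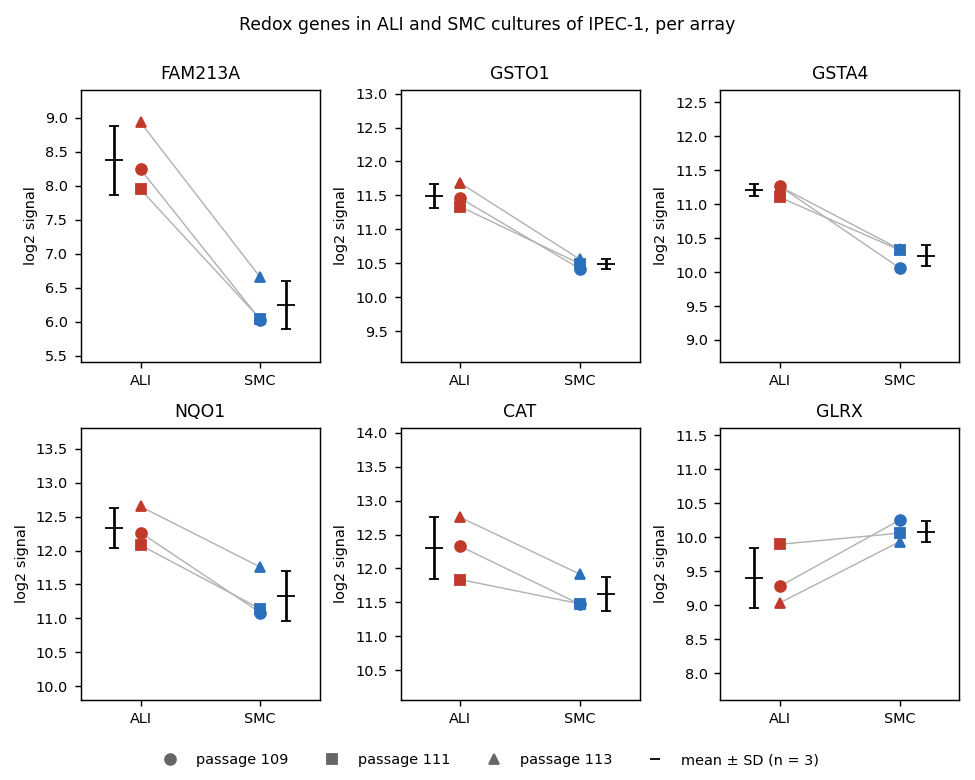
Log2 signal (vertical axis, the same span of 4 units in each panel) of FAM213A, GSTO1, GSTA4, NQO1, CAT and GLRX on each array of ALI (red) and SMC cells (blue), with lines joining arrays of the same passage and black bars for the mean ± SD of 3 arrays. FAM213A, GSTO1, GSTA4 and NQO1 lay above all SMC arrays in ALI cells, CAT overlapped although each passage line falls towards SMC, and GLRX lay below all SMC arrays in ALI cells.

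Counted over the group, 3 of the 46 genes (FAM213A, GSTO1 and GSTA4) rose in ALI cells without the block and 0 fell, all 3 by at least 1.5-fold. Of all 6765 named genes, 1.02% were called higher and 1.51% lower by this rule. With the passage as a block, 5 were higher, now including NQO1 and CAT, and 0 were lower, against 2.25% and 3.75% of all named genes. At an unadjusted p under 0.05, limma gave 8 of the 46 higher and 4 lower, or 17.4% and 8.70%, against 7.10% and 8.91% of all named genes. The methods' t-test gave 6 and 6 but called none of the 46 after Benjamini-Hochberg adjustment. Its shares over all named genes were not counted, so these t-test counts cannot be read as a result about the 46 genes. By the t-test, ERO1A and QSOX1, which limma called and which are described below, did not pass either (adjusted p = 0.183 and 0.161). The median log2 fold change was 0.07 over the 46 genes and 0.01 over all named genes, and 25 of the 46 had a positive and 21 a negative value. In 7 of the 46 genes all ALI arrays were above all SMC arrays (FAM213A, GSTO1, GSTA4, NQO1, PRDX1, SOD1 and GPX6), against 11.0% of all named genes. GPX6 was in the lowest 25% of the values on 2 ALI and all 3 SMC arrays. Its lowest ALI value was 4.488 and its highest SMC value 4.485. In another 7, namely GLRX, GPX1, GPX3, PRDX4, SOD2, TXNDC12 and TXNL1, all ALI arrays were below, against 10.9%. The calls among the 46 genes were all higher, but in a group of this size 0 lower lies near the 1.51% and 3.75% of all named genes. The genes were chosen with earlier results of these data known, and FAM213A, NQO1 and CAT by their own symbols. The counts of separated genes were equal on both sides. Of the 41 genes called in neither fit, 32 had a 95% confidence interval within a 1.5-fold change in either direction. The interval reached beyond it for GCLC, GCLM, GLRX, GPX1, GPX2, GSTA1, MGST1, PRDX6 and TXNDC12.

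**Figure D2:**
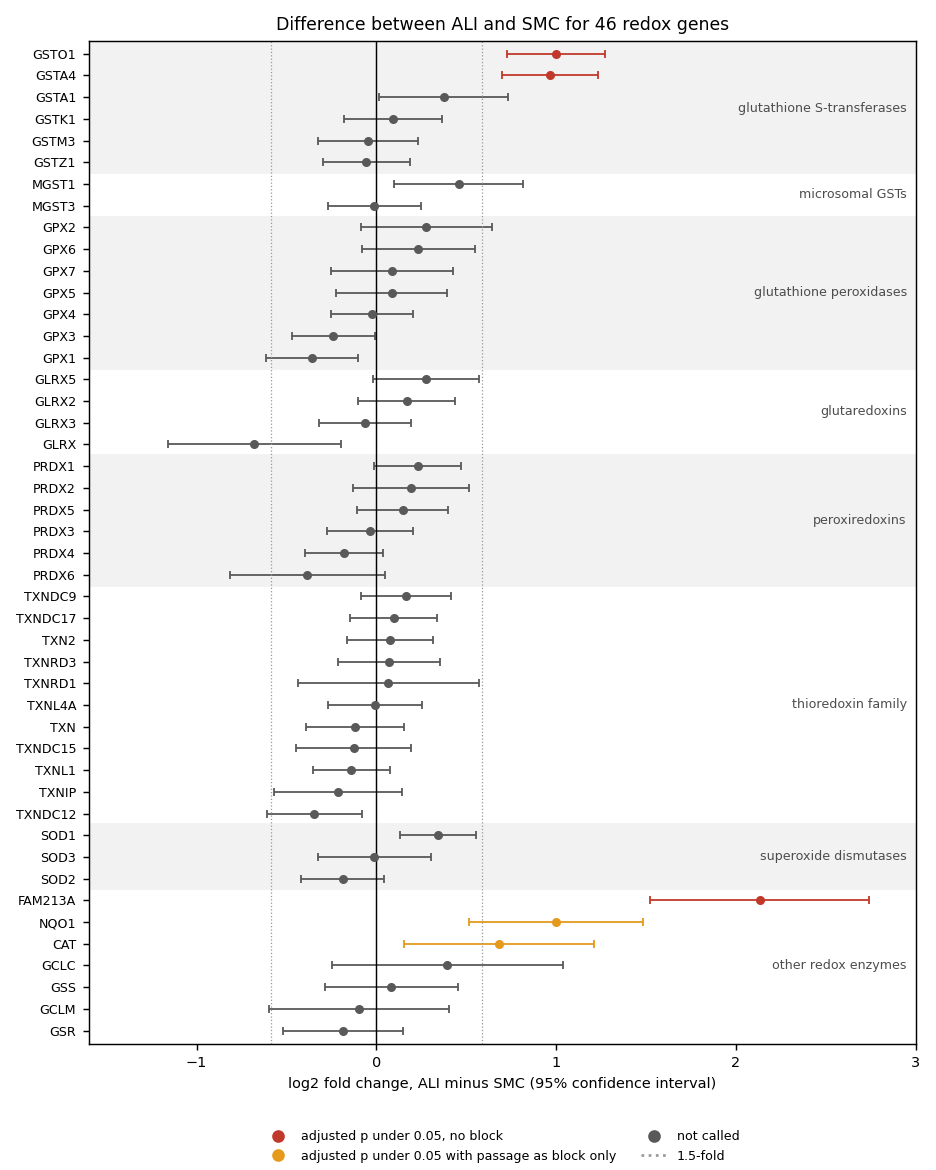
Log2 fold change of ALI minus SMC (horizontal axis) with its 95% confidence interval from limma for the 46 redox genes, grouped by family, with dotted lines at a 1.5-fold change. GSTO1, GSTA4 and FAM213A (red) were called without a block, NQO1 and CAT (orange) only with the passage as a block, and the other 41 (grey) in neither fit.

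Among the enzymes of glutathione synthesis and recycling, none was called by its brightest probe set. GCLC, the catalytic subunit of the rate-limiting enzyme, had log2 signals of 6.17, 7.11 and 6.27 in ALI and 5.90, 6.59 and 5.88 in SMC cells, so that replicate 2 was the highest in both groups. Its log2 fold change was 0.39 (adjusted p = 0.579, and 0.0816 with the block), and its other 4 probe sets gave -0.08 to 0.19. The modifier subunit GCLM had 5.58, 6.05 and 5.49 in ALI and 5.76, 6.21 and 5.43 in SMC cells, again with replicate 2 the highest in both. Its log2 fold change was -0.10 (adjusted p = 0.894), and that of GSS was 0.08 (adjusted p = 0.864). GSR, which regenerates glutathione, had an ALI to SMC change of -0.19 on the log2 scale (adjusted p = 0.619) for the brightest of its 3 probe sets. A second GSR probe set gave -0.59, which passed only with the block (adjusted p = 0.342 without and 0.0375 with it), and the third gave 0.26 (adjusted p = 0.408), so that the direction of GSR differed between its probe sets.

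The 7 glutathione peroxidases did not pass the test. GPX1, the ubiquitous cytosolic selenoenzyme, had log2 signals of 11.08, 10.98 and 11.09 in ALI and 11.53, 11.45 and 11.24 in SMC cells, with all ALI arrays below all SMC arrays. Its log2 fold change was -0.36 (95% confidence interval -0.61 to -0.10, adjusted p = 0.184). GPX2, the gastrointestinal isoform, had an ALI to SMC change of 0.28 on the log2 scale (adjusted p = 0.477), and GPX4, which reduces lipid hydroperoxides in membranes, had -0.03 (95% confidence interval -0.25 to 0.20). GPX3, the secreted plasma form, had -0.24 (adjusted p = 0.326). GPX5 was in the lowest 25% of the values on every array, and GPX6 and GPX7 were near it.

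GLRX, the cytosolic glutaredoxin that removes glutathione from protein thiols, had the most negative fold change of the group. Its log2 signals were 9.28, 9.90 and 9.04 in ALI and 10.25, 10.06 and 9.94 in SMC cells. The groups were separate, but the gap was -0.16 in replicate 2 and -0.97 and -0.90 in replicates 1 and 3. The log2 fold change of -0.68 (95% confidence interval -1.16 to -0.20) missed the threshold, with an adjusted p of 0.181 without and 0.0551 with the block. Without ALI replicate 2 it was -0.92 and passed (adjusted p = 0.0334). A second GLRX probe set gave -0.28 (adjusted p = 0.55). The mitochondrial glutaredoxins GLRX2 and GLRX5 had log2 fold changes of 0.17 and 0.28, and GLRX3 had -0.06.

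No peroxiredoxin was called. PRDX1, a cytosolic enzyme that reduces hydrogen peroxide with thioredoxin, was slightly above SMC on every ALI array, with 12.42, 12.50 and 12.39 in ALI and 12.33, 12.21 and 12.10 in SMC cells (log2 fold change 0.23, adjusted p = 0.369). PRDX4, the form of the endoplasmic reticulum, was below on every array at -0.18 (adjusted p = 0.429) by its brightest probe set. Its dimmer probe set gave -0.45 with overlapping groups (adjusted p = 0.562). PRDX6, a 1-Cys enzyme that uses glutathione, had -0.38 (95% confidence interval -0.81 to 0.05, adjusted p = 0.4, and 0.0855 with the block). PRDX2, PRDX3 and PRDX5 had log2 fold changes of 0.19, -0.04 and 0.15.

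The 11 genes of the thioredoxin family had log2 fold changes between -0.34 and 0.16, and none passed the test. Both probe sets of TXNRD3, the thioredoxin-glutathione reductase, showed overlapping groups. The brighter probe set had log2 signals of 7.29, 7.33 and 6.996 in ALI and 7.19, 7.03 and 7.196 in SMC cells (replicates 1, 2 and 3). Its log2 fold change was 0.07 (95% confidence interval -0.21 to 0.35, adjusted p = 0.849), and ALI was higher in replicates 1 and 2 and lower in replicate 3. The dimmer probe set had 3.88, 4.07 and 4.20 in ALI and 3.94, 4.16 and 3.87 in SMC cells, in the lowest 25% of the values on every array. Its log2 fold change was 0.06 (95% confidence interval -0.23 to 0.35, adjusted p = 0.882), with the opposite signs by passage, since ALI was lower in replicates 1 and 2 and higher in replicate 3. TXN, the cytosolic thioredoxin, had -0.12 (adjusted p = 0.716), TXNRD1, its selenium-dependent reductase, 0.07 (adjusted p = 0.928), and TXNIP, the thioredoxin inhibitor whose transcript responds to glucose, -0.21 (adjusted p = 0.594). TXNDC12, a thioredoxin-like protein of the endoplasmic reticulum, had the lowest value of the family at -0.34 (adjusted p = 0.22), with ALI below SMC on every array.

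The copper-zinc superoxide dismutase SOD1, which turns superoxide into hydrogen peroxide in the cytosol, varied little between arrays. Its log2 signals were 11.95, 11.95 and 11.92 in ALI and 11.57, 11.60 and 11.62 in SMC cells. The groups were separate, and the log2 fold change of 0.34 (95% confidence interval 0.13 to 0.55) had an adjusted p of 0.126 without and 0.105 with the block. The mitochondrial SOD2 had a log2 fold change of -0.19 with separate groups (adjusted p = 0.445), and the extracellular SOD3 had -0.01.

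**Figure D3:**
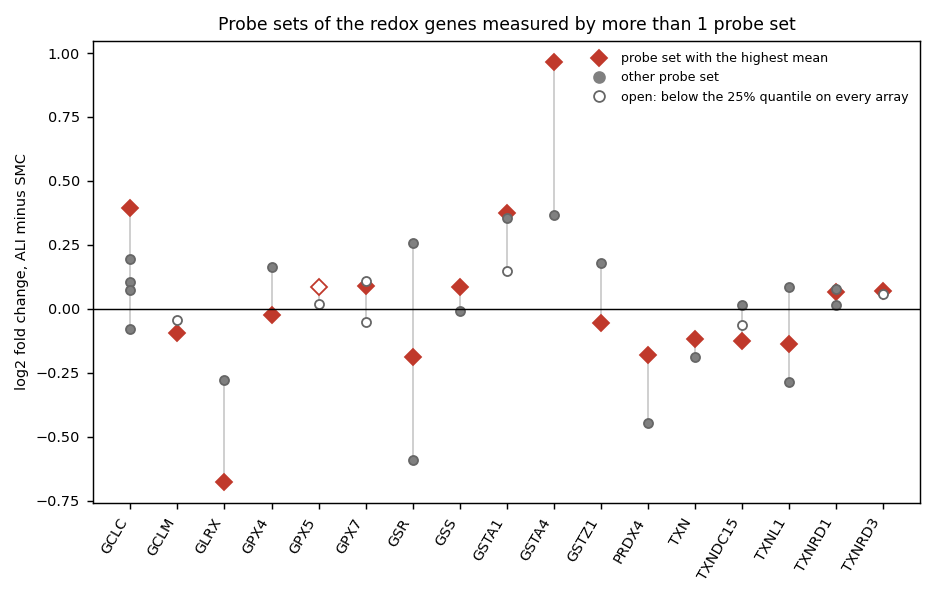
Log2 fold change of ALI minus SMC (vertical axis) for every probe set of the 17 redox genes measured by more than 1 probe set. Diamonds mark the probe set with the highest mean, circles the others, and open symbols those in the lowest 25% of the values on every array; the probe sets of GSTA4 and GSR lay more than 1.5-fold apart, and those of TXNRD3 both lay near 0.

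Of the 46 genes, 17 had more than 1 probe set. Only GSTA4 and GSR had probe sets whose fold changes lay more than 1.5-fold apart, and GSTA4 was the only gene with called and uncalled probe sets without the block, joined by GSR with it.

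The spread between passages was set beside the difference between culture types, although the measures are unlike. By noise alone, a range over 3 passage means tends to exceed a difference between culture means. The range of the 3 passage means was larger than the ALI to SMC difference in 27 of the 46 genes (58.7%), against 67.6% of all named genes. It exceeded a 1.5-fold change in 6 genes, namely GCLC, FAM213A, CAT, GCLM, NQO1 and TXNRD1, or 13.04% of the 46 against 5.68% of all named genes. The median range was 0.205 in the 46 and 0.214 in all named genes. GCLC and GCLM had their highest passage mean in replicate 2, at 6.85 and 6.13, while FAM213A, CAT and NQO1 had theirs in replicate 3, at 7.80, 12.33 and 12.20. A change of at least 1.5-fold between ALI and SMC was likewise reached by 6 genes, of which 5 were higher (FAM213A, GSTO1, GSTA4, NQO1 and CAT) and GLRX was lower. In all named genes, 1.82% were higher and 3.22% were lower by this size, called or not.

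Genes of neighbouring pathways were taken from 7 lists written from general knowledge. Their counts stand against the same shares of all named genes, 1.02% called higher and 1.51% lower without the block, 2.25% and 3.75% with it, and 7.10% and 8.91% at an unadjusted p under 0.05. In the list of 9 oxidant-producing enzymes, 2 fell in ALI cells and 0 rose (3 and 0 at an unadjusted p under 0.05), namely the thiol oxidases ERO1A and QSOX1. ERO1A, which passes electrons from protein disulfide isomerase to oxygen and forms hydrogen peroxide in the endoplasmic reticulum, had log2 signals of 7.05, 7.28 and 6.99 in ALI and 9.85, 9.11 and 8.88 in SMC cells. The groups were far apart, with a log2 fold change of -2.18 (SE 0.23, limma, adjusted p = 0.00521). QSOX1, a sulfhydryl oxidase of the secretory pathway, had 9.70, 9.36 and 9.79 in ALI and 10.86, 10.83 and 10.78 in SMC cells. Its log2 fold change was -1.21 (SE 0.13, adjusted p = 0.00537). Of its 2 dimmer probe sets, the one at -0.57 passed only with the block (limma, adjusted p = 0.0767 without and 0.0223 with it). The other gave -0.04 and passed in neither fit. Both ERO1A and QSOX1 passed the test without any 1 of the 6 arrays. No probe set carried the symbols of NOX1 and NOX4, and DUOX2, MAOA and MAOB were in the lowest 25% of the values on every array.

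SELENOP, the secreted selenoprotein that carries selenium, was the only called gene of 12 selenoproteins and enzymes of methionine sulfoxide repair, and 0 of them fell (4 and 0 at an unadjusted p under 0.05). Its log2 signals were 13.11, 12.85 and 13.09 in ALI and 11.74, 11.54 and 12.31 in SMC cells, with no overlap. The log2 fold change was 1.15 (SE 0.19, limma, adjusted p = 0.0271). Leaving out any 1 array other than SMC replicate 3 ended the call, with adjusted p from 0.0501 to 0.116. A dimmer probe set of SEPHS2, which makes the selenium donor for selenoproteins, was lower with the block (log2 fold change -0.52, adjusted p = 0.0793 without and 0.0305 with it), while the brightest gave -0.20 and did not pass.

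Of 18 further NRF2 targets, none was called without the block, with 5 higher and 1 lower at an unadjusted p under 0.05, and the median log2 fold change was -0.03. CBR1, a carbonyl reductase, had log2 signals of 5.22, 5.81 and 4.43 in ALI and 3.69, 3.88 and 3.61 in SMC cells. All 3 SMC arrays and ALI replicate 3 were in the lowest 25% of the values, so that its log2 fold change of 1.43 is no exact size. It passed only with the block (adjusted p = 0.0590 without and 0.00551 with it), with an intensity trend (0.0451) or without ALI replicate 3 (0.00794). ME1, the cytosolic malic enzyme and a source of NADPH, was lower with the block at -0.70 (adjusted p = 0.134 without and 0.0141 with it) and also passed without ALI replicate 3 (adjusted p = 0.0420). Heme oxygenase HMOX1, ferritin chains FTH1 and FTL, and AKR1A1 had log2 fold changes of 0.30, -0.15, -0.09 and 0.45 and did not pass in either fit.

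Of 16 genes of glutathione turnover and transport, none was called without the block (1 higher and 1 lower at an unadjusted p under 0.05), and with it 2 were lower, SLC1A1 and CTH. SLC1A1, a glutamate and cysteine transporter, had log2 signals of 8.10, 8.83 and 7.74 in ALI and 9.13, 9.19 and 8.80 in SMC cells (log2 fold change -0.82, adjusted p = 0.184 without and 0.0216 with the block). Its other 4 probe sets gave -0.61, -0.18, 0.13 and 0.29, and those at 0.13 and 0.29 were in the lowest 25% of the values on every array. The SLC1A1 probe set at -0.61 also passed with the block (adjusted p = 0.171 without and 0.0229 with it). The mean over the 5, including the dim ones, was -0.24 (adjusted p = 0.462). Without ALI replicate 2 the brightest gave -1.12 and passed (adjusted p = 0.0303). CTH, the cystathionine gamma-lyase that yields cysteine, had 7.82, 7.71 and 7.09 in ALI and 8.54, 8.45 and 7.54 in SMC cells (log2 fold change -0.64, adjusted p = 0.36 without and 0.0159 with the block), and its log2 fold change was -0.42 without ALI replicate 3. Both SLC1A1 and CTH were lower in ALI in each passage, and the groups overlapped across passages. GLO1, the glyoxalase that uses glutathione to clear methylglyoxal, had -0.23 for its brightest probe set (adjusted p = 0.398 without and 0.315 with the block), but the other 2 were lower with the block, at -0.49 and -0.54 (adjusted p = 0.0453 and 0.0477). Of 12 genes of NADPH supply, 0 were called without the block (2 higher and 2 lower at an unadjusted p under 0.05), and with it ME1 and the mitochondrial folate enzyme MTHFD2 were lower, MTHFD2 at -0.55 (adjusted p = 0.323 without and 0.0252 with the block). Without SMC replicate 1 the log2 fold change of MTHFD2 was -0.31. PGAM5 and SQSTM1, the 2 measured regulators of NRF2, had log2 fold changes of -0.15 and -0.05, and the metallothioneins MT1A and MT3 had 0.19 and 0.06, with 0 of the 4 under an unadjusted p of 0.05.

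**Figure D4:**
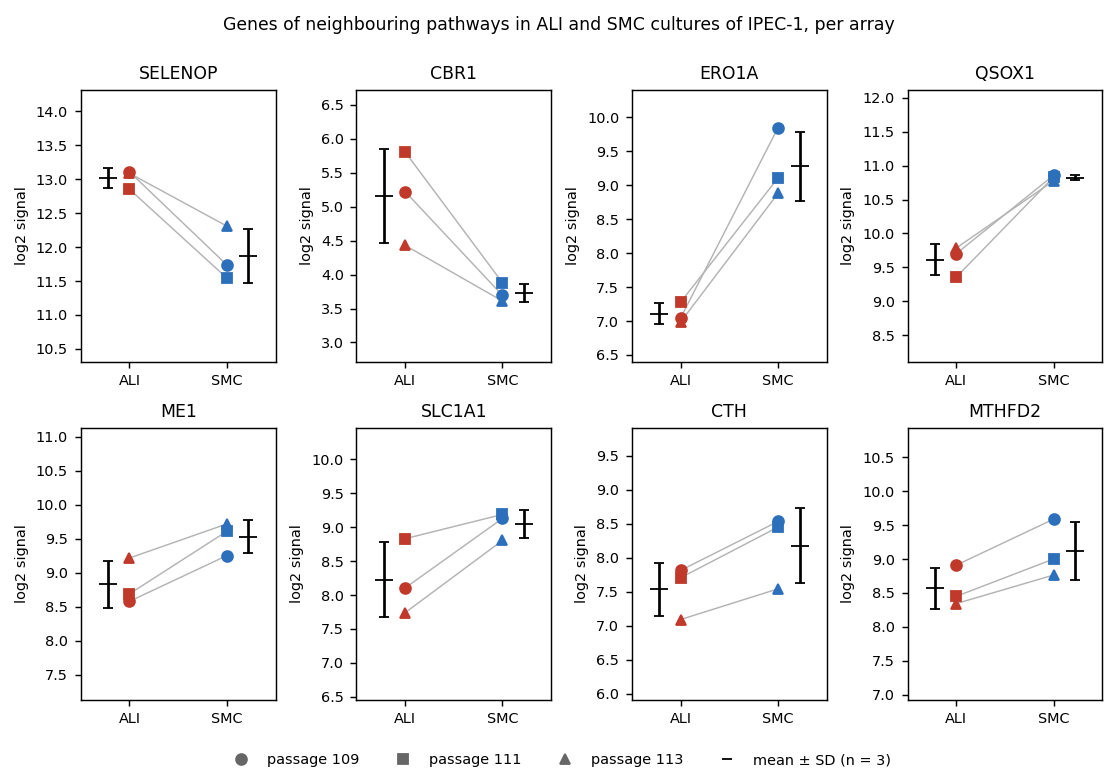
Log2 signal (vertical axis, the same span of 4 units in each panel) of 8 genes of neighbouring pathways on each array of ALI (red) and SMC cells (blue), with lines joining arrays of the same passage and black bars for the mean ± SD of 3 arrays. SELENOP and CBR1 were above SMC in ALI cells on every array and ERO1A, QSOX1 and ME1 below, while SLC1A1, CTH and MTHFD2 were lower in ALI cells within each passage with overlapping groups.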

How the data were processed

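The authors hybridized RNA to GeneChip Porcine Genome Arrays, analyzed them with Affymetrix GCOS and normalized them by GC-RMA according to the methods. GCOS 1.1.1 is the version in the submitters' processing notes. The authors deposited log2 values of 24123 probe sets on 6 arrays, in a table that names no normalization and holds no detection calls. These values were not scaled again, since the array medians lay between 6.33 and 6.38. After removal of 124 control probe sets, the remaining 23999 entered a linear model in limma 3.58.1 (lmFit, then eBayes; R 4.3.3) with culture type as the factor. Genes were named from the platform annotation: 10069 probe sets had 1 symbol, 198 several and 13732 none, and a gene was represented by its brightest probe set over the 6 arrays. The lowest 25% of the values ended at 4.51 to 4.61, depending on the array. The fits were tried on simulated data without a passage effect, so what the block does where passages differ was not tested. Arrays have no depth, and their number limits the precision; an exact permutation test of 3 against 3 cannot give a p below 0.1.

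Each passage, per the labels, has an ALI and an SMC array. Within such pairs the deviations from the group mean had correlations over the probe sets of 0.34, 0.14 and 0.45, and of -0.42 to 0.22 for arrays of different passages. ALI replicate 2 had a higher correlation with SMC replicate 1 (0.22) than with SMC replicate 2 of its own passage (0.14). Deviations from a mean cancel out within a group, so these correlations are not independent of each other. The arrays were taken as paired because of the labels, and the correlations do not test the pairing. The blocked value stands beside a result where it changes the call.

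The genes and lists were chosen with earlier results of these data known. Named are genes called in either fit, both TXNRD3 probe sets, genes whose probe sets disagree, the other members by family and, per list, up to 6 called genes or the 2 farthest from 0; further genes were named after their values were seen. Alternatives were the replicate block, quantile normalization, median centring, a mean signal above 4 or 6, averaging of the probe sets of a gene, an intensity trend, the methods' t-test and leaving out each array.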

Additional observations from a re-analysis of the deposited data

How the results depend on the processing

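Without the block, the count of 3 genes higher and 0 lower was the same after quantile normalization, median centring, both filters on dim probe sets and averaging of probe sets, and each time the same 3 genes were called. With the replicate block by passage 5 were higher, all by at least 1.5-fold, and the methods' t-test called 0 (adjusted p of 0.159 to 0.214 for the 3 genes). The list genes ERO1A, QSOX1 and SELENOP did not pass the t-test either (adjusted p = 0.183, 0.161 and 0.265). Leaving out 1 array gave 2 to 4 higher and 0 to 1 lower, with the same counts at 1.5-fold, and a median log2 fold change of the 46 genes of 0.0313 (without ALI replicate 3) to 0.0825, against 0.07 with all arrays. The dimmer TXNRD3 probe set changed sign near 0, with a log2 fold change of -0.0017 after quantile normalization and -0.0136 to 0.143 when 1 array was left out (below 0 without ALI replicate 3 or SMC replicate 3); the brighter probe set ranged from 0.01 to 0.18. With the replicate block, 1 further NRF2 target was higher and 1 lower, 2 genes of glutathione turnover were lower and 2 of NADPH supply were lower, where 0 were called without it. Averaging probe sets took QSOX1 to -0.61 (adjusted p = 0.0271) and SLC1A1 to -0.24 (adjusted p = 0.462), where the SLC1A1 mean includes probe sets in the lowest 25% on every array. The cause of these changes was not tested. Shares of all named genes were counted only for the limma fit described above, without and with the block. The counts under the other alternatives have no such share beside them. The t-test shares no spread across probe sets. Leaving out 1 array leaves 2 in its group, and the fit pools their spread with the other group. Signals in the lowest 25% of the values bound no fold change. Among the redox and pathway genes named, this concerns GSTM3, GPX5, GPX6, GPX7, CBR1, DUOX2, MAOA and MAOB on some or all arrays. The dimmer TXNRD3 and GSTA4 probe sets are concerned as well. The same holds for the SLC1A1 probe sets at -0.61, 0.13 and 0.29, and for the GCLC probe sets at 0.10 and 0.07.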
